A study of Mus musculus with 6 samples.

Results

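Transcripts of 36 genes of glycolysis and of the response to low oxygen were followed in hearts of mouse embryos at embryonic day 11.5, on 3 arrays of Dicer mutant hearts and 3 arrays of control hearts. The members are a named list, and each was matched to the array probes that the platform annotation assigns to that gene alone. The array carried such a probe for 31 of the 36, 29 had a probe in the test, and 28 could be compared between the groups, out of 15012 genes tested. Gene expression was measured on single-colour CodeLink oligonucleotide arrays hybridised with biotin-labelled RNA. In the mutant hearts the gene for Dicer, the ribonuclease that cuts miRNA precursors, was inactivated by a Cre recombinase knocked into the Nkx2.5 locus, which is active in cardiac progenitors. Cells that never used that locus keep the gene. The labels used here state neither the genotype of the control hearts nor whether an array held 1 embryo or a pool. A p-value here reflects the spread among these arrays alone, part of which may be technical.

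Glycolysis turns glucose into pyruvate in the cytosol and yields ATP without oxygen. The transcription factor HIF joins an oxygen-regulated alpha subunit (Hif1a or Epas1) to the stable partner Arnt. In the presence of oxygen, prolyl hydroxylases mark the alpha subunit for destruction, and when oxygen is short the alpha subunit persists and the complex switches on glucose transporters, glycolytic enzymes and genes such as Vegfa. HIF activity is therefore set largely at the protein level, and an array reads only the transcripts. The embryonic heart at this stage is known to rely strongly on glycolysis.

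The core HIF-binding motif is the 5 letters ACGTG or GCGTG. The windows of 250 bases before and 50 bases after the start site are shown for 3 members among the highest in mutant 3, the array that stands apart below, and for the member lowest in it. The 3 are those with the largest deviation of that array from the mean of the 6 among members with a single window. Sequences are from RefSeq on mouse assembly GRCm38.p6, written 5′ to 3′ on the gene's own strand, and capitals mark matches on either strand, CACGT and CACGC being the motifs read on the opposite strand.
Adm: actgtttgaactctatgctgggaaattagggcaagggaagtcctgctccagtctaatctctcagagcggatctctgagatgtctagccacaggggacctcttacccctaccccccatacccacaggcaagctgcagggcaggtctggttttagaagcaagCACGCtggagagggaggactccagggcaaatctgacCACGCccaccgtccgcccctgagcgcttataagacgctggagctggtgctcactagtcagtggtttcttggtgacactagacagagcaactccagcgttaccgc
Bnip3: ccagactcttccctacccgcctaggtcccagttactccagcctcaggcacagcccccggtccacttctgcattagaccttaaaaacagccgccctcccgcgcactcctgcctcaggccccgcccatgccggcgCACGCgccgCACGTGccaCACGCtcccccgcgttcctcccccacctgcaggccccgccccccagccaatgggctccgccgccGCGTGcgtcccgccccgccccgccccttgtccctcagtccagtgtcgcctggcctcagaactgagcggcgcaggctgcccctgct
Pfkp: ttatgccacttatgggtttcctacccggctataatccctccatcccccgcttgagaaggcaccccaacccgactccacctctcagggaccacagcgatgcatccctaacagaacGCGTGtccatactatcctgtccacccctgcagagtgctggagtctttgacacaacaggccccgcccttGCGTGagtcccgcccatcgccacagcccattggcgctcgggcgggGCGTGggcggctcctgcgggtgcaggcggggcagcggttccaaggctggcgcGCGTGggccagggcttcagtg
Hif1a: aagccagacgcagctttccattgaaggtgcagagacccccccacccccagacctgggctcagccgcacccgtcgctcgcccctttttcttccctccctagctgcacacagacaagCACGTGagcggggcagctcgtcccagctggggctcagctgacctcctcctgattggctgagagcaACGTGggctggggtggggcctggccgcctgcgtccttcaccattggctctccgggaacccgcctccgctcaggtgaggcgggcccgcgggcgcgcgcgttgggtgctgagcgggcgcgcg
The Adm window lies at chr7:110627407-110627706 on the plus strand and holds 2 matches. The Bnip3 window, chr7:138909457-138909756 on the minus strand, holds 5, of which 2 are the overlapping strands of the palindrome CACGTG. The Pfkp window, chr13:6648722-6649021 on the minus strand, holds 4. The Hif1a window, chr12:73907617-73907916 on the plus strand, holds 3, again with 2 in 1 palindrome. At least 1 match was present in 39 of 47 windows of members (83%) and in 14380 of 32851 windows of all genes (43.8%). Motif and base composition were not separated, so the higher share is a description of these letters and not of binding.

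No member passed the test between mutant and control hearts, and the strongest pattern among the members was carried by 1 array. Of the 28 members compared, 0 had an adjusted p under 0.05 in limma's moderated test, against 9 of 17589 probes on the whole array (0.0512%, with 0.0284% higher and 0.0227% lower). On the log2 scale, 18 members had a positive difference, mutant minus control, and 10 a negative one, beside 52.4% of all genes positive. Their median difference was 0.13, against 0.01 over 14925 genes, and the members ranged from -0.23 for Pkm to 0.61 for Pfkp. At an unadjusted p under 0.05 there were 2 members, Hk1 and Pfkm, both higher in the mutant, beside 6.71% of genes higher and 3.47% lower. The groups did not overlap for 2 members, Pfkm and Pfkp, again with the mutant higher, beside 9.72% of genes. No member had all mutant arrays below all control arrays, beside 5.48% of genes.

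Mutant 3 stood apart from the other 2 mutant arrays for these genes. It gave the highest of the 6 values in 23 of the 28 members (82.1%), against 21.4% of all genes. The exceptions were Slc2a3 and Pdk1, highest in control 3, Hif1a in mutant 1, Epas1 in control 1 and P4ha1 in control 2. The count of 23 uses the brightest probe of each gene. The dimmer probes of Ndrg1 and Pfkfb3 were also highest in mutant 3, but those of Ldhb, Tpi1 and, narrowly, Slc16a3 were not. Across the members, the median SD was 0.44 among mutant arrays and 0.23 among control arrays, and the mutant SD was the larger in 82.1% of members and 51.7% of all genes. The count varied with scaling: mutant 3 was highest in 17 members with no scaling between arrays (60.7%, against 8.01% of genes) and in 24 with the authors' normalized intensity (85.7%, against 22.9%). With mutant 3 left out, 13 members were positive and 15 negative, the median difference was -0.02, and 0 members passed, beside 0.00569% of probes. At an unadjusted p under 0.05, 2 members, Pkm and Egln3, were then lower, beside 6.24% of genes, and 0 higher, beside 9.22%. Differences of the members without that array are therefore given beside those with all arrays. In bulk hearts a smaller number of cells of a type and less RNA per cell cannot be told apart.

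**Figure D1:**
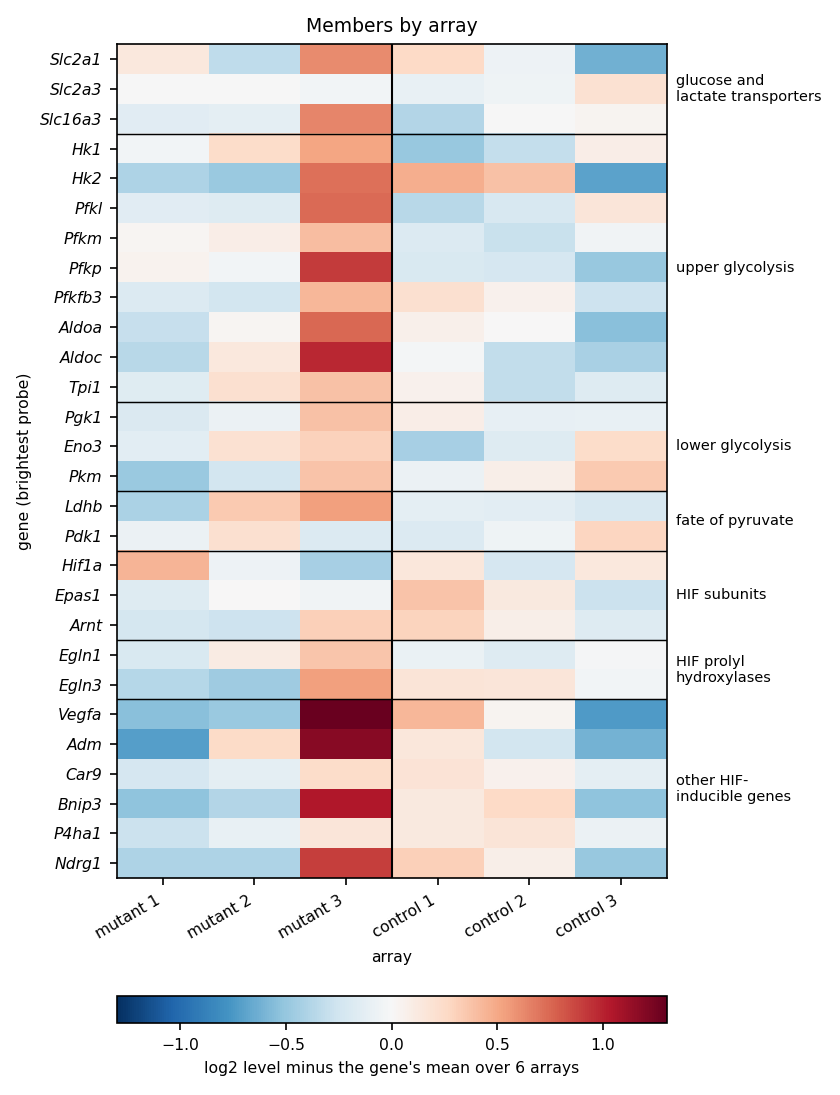
Level of each of the 28 members on each array, as the log2 normalised intensity minus the gene's mean over the 6 arrays, with genes down the page by role and arrays across, mutants left of controls. The mutant 3 column is the highest in 23 of 28 rows, while Hif1a is lowest there.

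The share of 36227 spots above background ran from 74.1% in mutant 3 to 78.2% in mutant 1, with 184 to 263 saturated, and the part of that share in the position of mutant 3 was not tested. Dicer1 passed the test and was lower in the mutant, at 6.72 ± 0.03 against 7.72 ± 0.10 in the control (log2 intensity, SD, n = 3 each, limma adjusted p = 0.0355). Whether its probe lies in the deleted stretch is not known here. Several cardiomyocyte transcripts were abundant on every array. Actc1 and Myl7, the cardiac actin and an atrial myosin light chain, were saturated on all 6 arrays. Others were dim: Ryr2 had log2 intensities of 6.48 to 6.72, and Myh6, at 5.78 to 6.83, was above background on 1 of 3 control arrays.

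Glucose and lactate transporters come first in the pathway. Slc2a1, the basal glucose transporter GLUT1, had log2 intensities of 11.57, 11.10 and 12.04 in mutants 1 to 3 and of 11.69, 11.36 and 10.81 in controls 1 to 3. The groups overlapped, since mutants 1 and 2 lay below control 1, and the difference was 0.28 ± 0.30 (log2, SE, n = 3 each). Without mutant 3 it was 0.05 ± 0.29. Slc16a3, the exporter of lactate MCT4, gave 10.65, 10.67 and 11.44 in the mutants against 10.41, 10.79 and 10.83 in the controls, a difference of 0.24 ± 0.24. The first 2 mutants lay within the control range, and without mutant 3 the difference was -0.02 ± 0.15. A dimmer Slc16a3 probe differed by -0.15. Slc2a3, the high-affinity transporter GLUT3, was above background on 2 of 3 arrays in each group and differed by -0.03 ± 0.11, and by -0.02 ± 0.12 without mutant 3.

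Upper glycolysis, where glucose is phosphorylated and split, held the members with the smallest p. A positive difference was found in 8 of its 9 measured genes, beside 52.4% of all genes (median 0.32 on the log2 scale, and 0.14 without mutant 3). Mutant 3 was the highest array in all 9, and without it 6 of the 9 were positive. Pfkm, the muscle isoform of phosphofructokinase, which catalyses the committed step, had log2 intensities of 10.85, 10.91 and 11.24 in the mutants against 10.66, 10.54 and 10.78 in the controls. All mutant arrays lay above all control arrays, yet the difference of 0.34 ± 0.13 did not pass (limma adjusted p = 0.467). Without mutant 3 it was 0.22 ± 0.11. Pfkp, the platelet isoform, gave 12.66, 12.58 and 13.52 in the mutants against 12.42, 12.40 and 12.12 in the controls. Here too the groups did not overlap, with mutants 1 and 2 just above the controls and mutant 3 well above the other 5. The difference of 0.61 ± 0.26 (limma adjusted p = 0.503) was 0.31 ± 0.13 without mutant 3. Pfkl, the liver isoform, overlapped between the groups, at 9.84, 9.82 and 10.73 in the mutants against 9.63, 9.78 and 10.15 in the controls, a difference of 0.28 ± 0.27 that was -0.02 ± 0.17 without mutant 3.

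The 2 hexokinases, which trap glucose as glucose phosphate, did not follow each other. Hk1, the constitutive form, had log2 intensities of 9.90, 10.17 and 10.44 in the mutants against 9.44, 9.62 and 10.01 in the controls. Only mutant 1 lay below the highest control, and the difference was 0.48 ± 0.19 (limma adjusted p = 0.484), or 0.34 ± 0.19 without mutant 3. Hk2, the inducible form and a known HIF target, gave 10.48, 10.39 and 11.59 in the mutants against 11.35, 11.26 and 10.18 in the controls. Both groups were split: mutant 3, control 1 and control 2 were high, and mutant 1, mutant 2 and control 3 were low. The difference between the groups was -0.11 ± 0.42, and -0.49 ± 0.36 without mutant 3.

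The rest of upper glycolysis was higher in mutant 3 than elsewhere. Aldoa, the muscle aldolase that splits the phosphorylated hexose, had log2 intensities of 11.23, 11.55 and 12.27 in the mutants against 11.59, 11.53 and 10.98 in the controls (difference 0.32 ± 0.29, and 0.02 ± 0.22 without mutant 3). Aldoc, the brain aldolase, gave 7.29, 7.79 and 8.63 in the mutants against 7.63, 7.33 and 7.23 in the controls (difference 0.50 ± 0.33, and 0.14 ± 0.20 without mutant 3). In both genes the other 5 arrays formed 1 overlapping range. Tpi1, triosephosphate isomerase, differed by 0.29 ± 0.17 (0.17 ± 0.17 without mutant 3), and its dimmer probe by -0.04. Pfkfb3, which makes the activator of phosphofructokinase and is induced by HIF, differed by 0.01 ± 0.21 (-0.21 ± 0.16 without mutant 3), with 7.33, 7.27 and 7.95 in the mutants against 7.72, 7.57 and 7.24 in the controls. On this probe its split was that of Hk2. The dimmer Pfkfb3 probe, above background on 4 of 6 arrays, did not show that split, with 6.34, 6.42 and 6.53 in the mutants against 6.25, 6.36 and 6.11 in the controls (difference 0.19 ± 0.11).

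In lower glycolysis, which recovers ATP and ends in pyruvate, 3 of 6 members could be compared, and mutant 3 was the highest array in each. Pgk1, phosphoglycerate kinase, had log2 intensities of 12.53, 12.64 and 13.10 in the mutants against 12.81, 12.62 and 12.62 in the controls, a difference of 0.07 ± 0.16, or -0.10 ± 0.11 without mutant 3. Eno3, the muscle enolase, gave 12.60, 12.93 and 13.04 in the mutants against 12.30, 12.57 and 12.98 in the controls, a difference of 0.24 ± 0.20, or 0.15 ± 0.22 without mutant 3. Both groups reached nearly the same top value for Eno3, in mutant 3 and control 3. Pkm, pyruvate kinase of muscle, had the lowest difference of the members, -0.23 ± 0.23, with 8.00, 8.24 and 8.86 in the mutants against 8.40, 8.56 and 8.82 in the controls. Without mutant 3 it was -0.47 ± 0.16 (limma adjusted p = 0.26). The brightest probe of Gapdh, the glyceraldehyde phosphate dehydrogenase, was saturated on all 6 arrays and allows no fold change, and its 2 dimmer probes differed by 0.24 ± 0.20 and -0.04 ± 0.23. Pgam1 had a probe only in common with a further gene, Eno1 and Gpi1 are not in the annotation of the array used here, and none was compared.

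Of the enzymes that decide the fate of pyruvate, Ldhb, the heart-type subunit of lactate dehydrogenase, had log2 intensities of 12.37, 13.13 and 13.32 in the mutants against 12.66, 12.65 and 12.58 in the controls. The controls lay close together, and the mutants spread to both sides of them, so that the difference of 0.31 ± 0.24 did not pass (limma adjusted p = 0.676). Without mutant 3 it was 0.12 ± 0.22. The dimmer Ldhb probe differed by -0.08. Pdk1, the kinase that closes pyruvate dehydrogenase and a HIF target, gave 8.99, 9.28 and 8.89 in the mutants against 8.89, 9.02 and 9.35 in the controls (difference -0.03 ± 0.16, and 0.05 ± 0.17 without mutant 3). Unlike most members, it was low rather than high in mutant 3. Ldha, the muscle-type subunit, was not above background on any array.

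**Figure D2:**
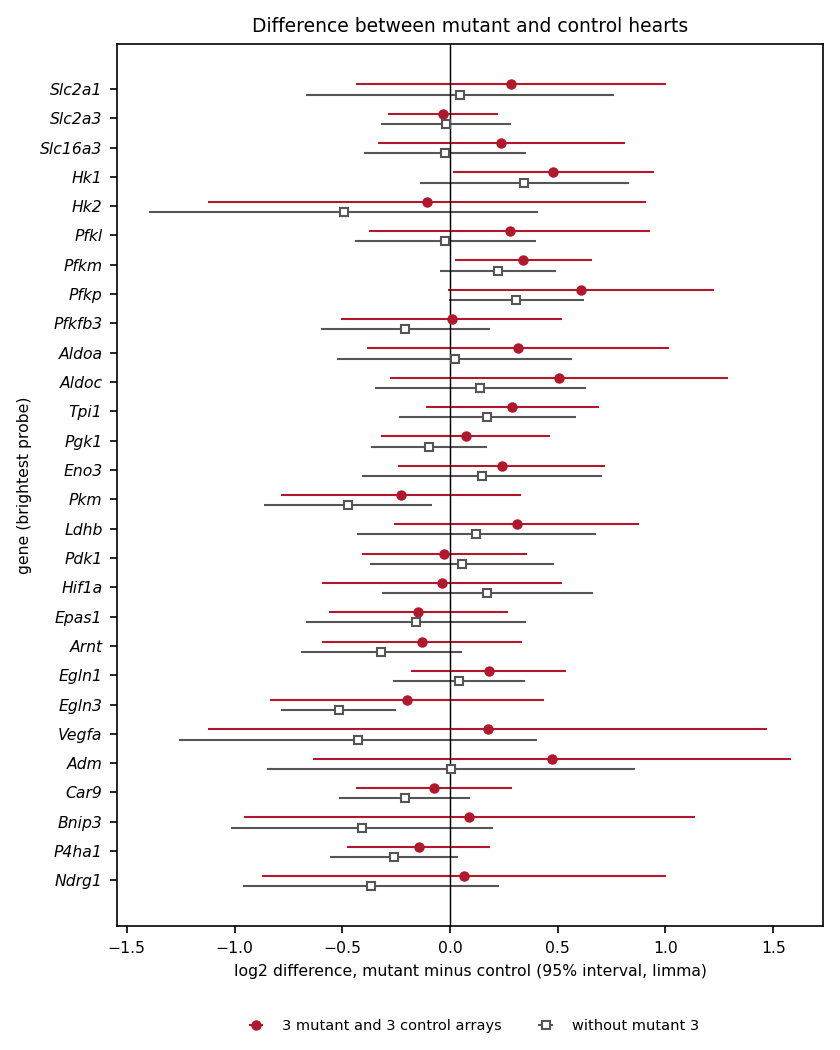
Difference between mutant and control hearts for each member, in log2 units on the horizontal axis, with its 95% interval from limma. Red circles use 3 mutant and 3 control arrays and open squares leave out mutant 3. With all arrays, the intervals of Hk1 and Pfkm lie just above 0 before adjustment, and without mutant 3 those of Pkm and Egln3 lie below 0.

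Of the 3 HIF subunits, 1, Arnt, was highest in mutant 3, and none passed the test between the groups. Hif1a had log2 intensities of 10.22, 9.72 and 9.34 in the mutants against 9.92, 9.56 and 9.91 in the controls, a difference of -0.04 ± 0.23, or 0.17 ± 0.20 without mutant 3. The mutants spanned the widest range, and mutant 3 held the lowest of the 6 values, at 0.648 of the mean of the other 2 mutants. Epas1, the alpha subunit prominent in endothelium, gave 6.74, 6.91 and 6.86 in the mutants against 7.28, 7.04 and 6.63 in the controls (difference -0.15 ± 0.17, and -0.16 ± 0.20 without mutant 3). Arnt, the beta subunit, gave 7.98, 7.94 and 8.52 in the mutants against 8.50, 8.29 and 8.05 in the controls (difference -0.13 ± 0.19, and -0.32 ± 0.15 without mutant 3). For Arnt mutant 3 and control 1 were close to equal.

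The prolyl hydroxylases mark HIF for destruction, and Egln3 is itself a known HIF target. Egln3 had log2 intensities of 9.40, 9.30 and 10.31 in the mutants against 9.94, 9.93 and 9.74 in the controls. Mutants 1 and 2 lay below every control and mutant 3 above every control, so the difference of -0.20 ± 0.27 became -0.52 ± 0.11 without mutant 3 (limma adjusted p = 0.163). Egln1, the main oxygen sensor of the family, differed by 0.18 ± 0.15, and by 0.04 ± 0.12 without mutant 3.

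The other HIF-inducible genes held the members with the widest log2 range over the arrays, Vegfa (2.02), Adm (1.89) and Bnip3 (1.57). Ndrg1 ranged over 1.39, but Car9 and P4ha1 over only 0.46 and 0.44. The 6 measured members of this list had a median log2 deviation from the mean of the 6 arrays of -0.46, -0.25 and 0.97 in mutants 1 to 3. In controls 1 to 3 it was 0.16, 0.07 and -0.50. Mutant 3 was thus far above the other arrays, and control 3 was as low as mutant 1. The median difference between the groups was 0.08 with all arrays and -0.31 without mutant 3, when only 1 of the 6 was positive.

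Vegfa, the ligand that drives growth of endothelial cells, had log2 intensities of 9.09, 9.15 and 10.92 in the mutants against 10.07, 9.67 and 8.90 in the controls. Its value in mutant 3 was 3.49-fold the mean of the other 2 mutants (1.80 on the log2 scale), the widest such gap among the members. The difference between the groups was 0.17 ± 0.54 (limma adjusted p = 0.929), and -0.43 ± 0.33 without mutant 3. Bnip3, a mitochondrial protein of mitophagy and cell death, gave 11.89, 12.04 and 13.46 in the mutants against 12.54, 12.68 and 11.90 in the controls. Mutant 3 was 2.81-fold above the other mutants, control 3 matched mutant 1, and the difference was 0.09 ± 0.44, or -0.41 ± 0.25 without mutant 3. Ndrg1, a stress-responsive gene, gave 8.13, 8.12 and 9.42 in the mutants against 8.83, 8.60 and 8.03 in the controls. Mutant 3 was 2.46-fold above the other mutants, and the difference was 0.07 ± 0.39, or -0.37 ± 0.24 without mutant 3. The dimmer Ndrg1 probe was likewise highest in mutant 3, followed by controls 1 and 2, with 6.38, 6.54 and 7.94 in the mutants against 6.94, 6.67 and 6.39 in the controls.

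Adm, which encodes the vasodilator peptide adrenomedullin, had log2 intensities of 6.79, 7.75 and 8.68 in the mutants against 7.65, 7.26 and 6.89 in the controls. The mutants covered more than the whole control range, and the difference was 0.47 ± 0.46, or 0.00 ± 0.34 without mutant 3. Car9, the surface carbonic anhydrase, differed by -0.07 ± 0.15, and by -0.21 ± 0.12 without mutant 3. P4ha1, a collagen prolyl hydroxylase subunit, differed by -0.14 ± 0.14, and by -0.26 ± 0.12 without mutant 3. P4ha1 was highest in control 2, at 9.77, which mutant 3 matched within 0.01. P4ha2 was not above background on any array, and Ankrd37 and Higd1a are not in the annotation of the array used here.

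**Figure D3:**
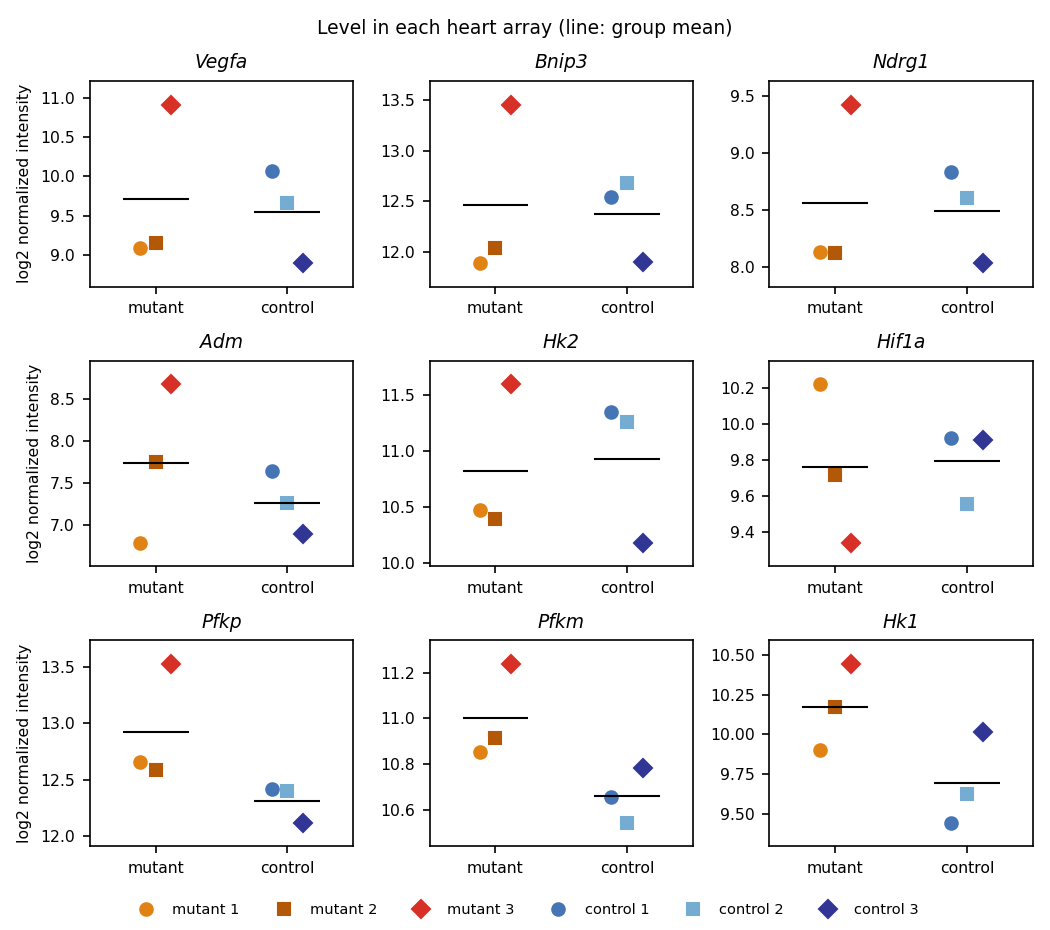
Log2 normalised intensity of 9 members on each array, mutants left of controls, with a line at each group mean. Vegfa, Bnip3, Ndrg1 and Hk2 are high in mutant 3 and in controls 1 and 2, whereas Pfkp and Pfkm separate the groups and Hif1a is lowest in mutant 3.

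The control arrays were split as well, and several differences changed sign with the arrays left out. In 8 members, Arnt, Bnip3, Car9, Egln3, Hk2, Ndrg1, Pfkfb3 and Vegfa, mutant 3 was the highest array, controls 1 and 2 lay above mutants 1 and 2, and control 3 lay below the other controls, an order found in 578 of 14925 genes. Leaving out mutant 3 and control 3, which share a number in their titles, changed several calls. Mutants 1 and 2 then lay below controls 1 and 2 in 11 of 28 members, beside 28.2% of genes, and above them in 6, beside 35.9% of genes. In the fit of those 4 arrays, 7 members passed, in an array-wide background of 3877 probes (22%). In the 8 members above, the arrays left out were the highest mutant and the lowest control. The lower calls below therefore follow in part from that choice and are no separate support. Adjusted p-values are from limma, in parentheses. Lower were Hk2 by a log2 difference of -0.87 ± 0.10 (limma adjusted p = 0.00233), Vegfa by -0.75 ± 0.14 (0.0142), Bnip3 by -0.64 ± 0.11 (0.00888), Ndrg1 by -0.59 ± 0.11 (0.0136), Egln3 by -0.58 ± 0.10 (0.00836) and Arnt by -0.43 ± 0.11 (0.0341), beside 10.8% of genes. Higher was Hk1, by 0.51 ± 0.13 (0.0344), beside 12% of genes. Control 3 was the highest control for Hk1 and the only control above mutant 1. The call of Hk1 thus also follows in part from the choice of arrays and is no separate support.

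Array titles also start with a code that mutant 1, mutant 2 and control 1 share and that may name a slide, while each other array has its own. With that code as a block, mutants 1 and 2 are set against control 1 alone, and that lone control is assumed to vary like the mutants. In that fit 1308 probes passed (7.44%), and 3 members were lower, beside 4.75% of genes: Vegfa by -0.95 ± 0.12 (limma adjusted p = 0.0276), Hk2 by -0.91 ± 0.13 (0.0303) and Ndrg1 by -0.71 ± 0.12 (0.0436). None was higher, beside 3.1% of genes. For Vegfa and Ndrg1 the sign is the opposite of that with all 6 arrays, and it rests on 1 control array.

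Of related genes outside the members, 0 passed in any of 4 lists. Of 35 other glycolytic and glucose handling genes, 25 were measured, 13 of them with a positive difference and a median of 0.11 on the log2 scale. Gys1, muscle glycogen synthase, and Pgm1, a phosphoglucomutase, had the smallest p, with differences of 0.53 ± 0.11 (limma adjusted p = 0.184) and 0.48 ± 0.13 (0.281). Both act at the branch between glycolysis and glycogen, and neither passed. Mutant 3 was the highest array in 11 of the 25.

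Of 44 other hypoxia-inducible genes and HIF regulators, 37 were measured, 15 with a positive and 22 with a negative difference (median -0.05 on the log2 scale, and -0.21 without mutant 3). Mutant 3 was the highest array in 20 of the 37. The smallest p belonged to Anxa1, the annexin A1 gene, at 0.53 ± 0.10 (limma adjusted p = 0.157), and to Hif1an, the asparaginyl hydroxylase that blocks HIF activity, at 0.74 ± 0.18 (0.254). Bhlhe40, a repressor induced by HIF and chosen here after its values were seen, had log2 intensities of 7.28, 7.29 and 9.57 in the mutants against 8.56, 8.28 and 7.40 in the controls. Its high and low arrays were those of Vegfa.

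In the pentose phosphate pathway, a side branch that makes NADPH and ribose, 4 of 8 genes were measured, and mutant 3 was highest in 0 of them. Taldo1, transaldolase, differed by -0.36 ± 0.18 and H6pd, the reticular hexose phosphate dehydrogenase, by -0.07 ± 0.13. Of 6 gluconeogenesis genes, 3 were measured. G6pc, the glucose phosphatase catalytic subunit, differed by -1.27 ± 0.46 (limma adjusted p = 0.426). Without mutant 3 it differed by -1.83 ± 0.19 (limma adjusted p = 0.0723). G6pc in mutant 3, at 11.03, lay within the control range, while mutants 1 and 2 lay below it. Pck2 differed by 0.25 ± 0.21, and by 0.31 ± 0.25 without mutant 3.

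**Figure D4:**
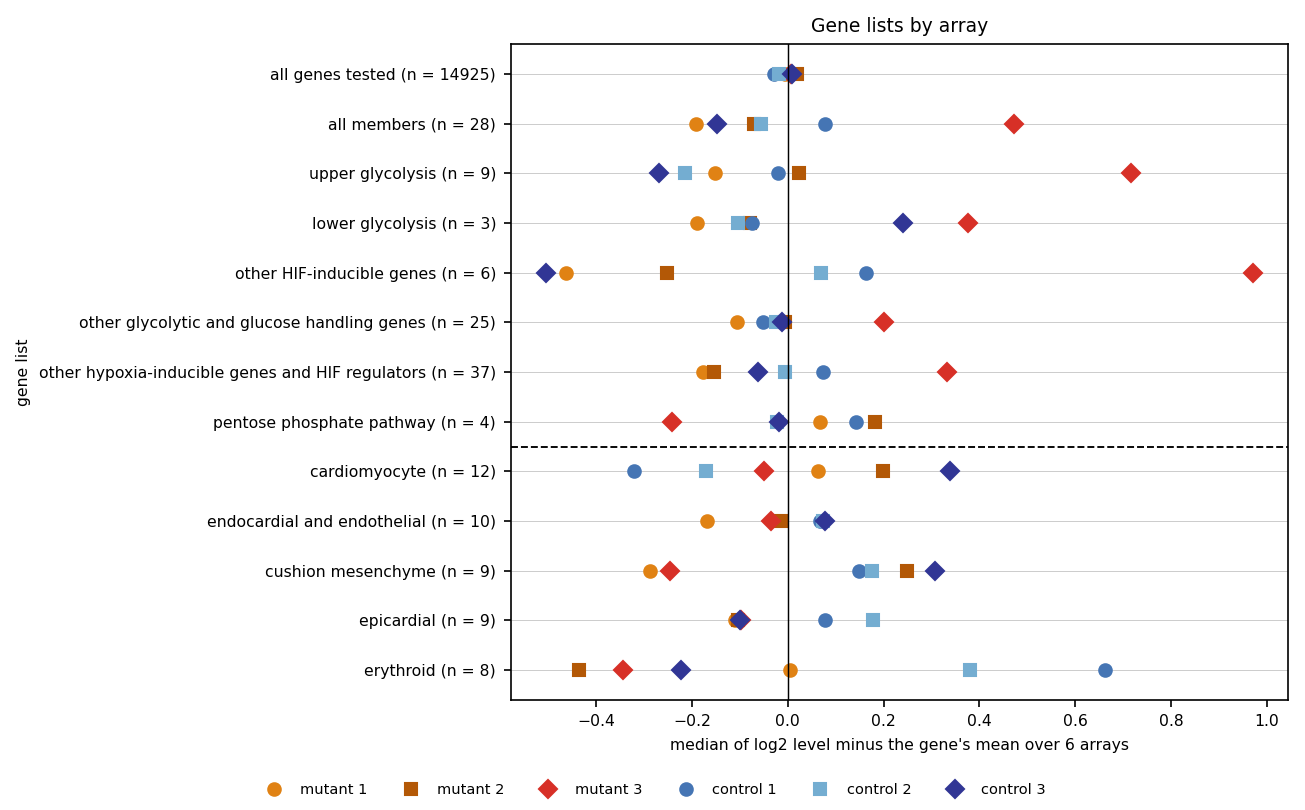
Median over the genes of each list of the log2 level minus the gene's mean over 6 arrays, 1 point per array, with gene lists above the dashed line and cell type markers below it. Mutant 3 is highest for the members (0.47) and for the other hypoxia-inducible genes (0.33), and the erythroid list is highest in controls 1 and 2.

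Cell type markers were set beside these values, and their part in the results was not tested. The cardiomyocyte list, with 12 of 15 genes measured, had a summed linear intensity of 118909 to 147476 in mutants and 85892 to 151965 in controls, with mutant 3 inside the range of the controls and Nppa the 1 gene of the list with no probe in the test. The endocardial and endothelial list, with 10 of 12 measured, summed to 8499 to 9583 in mutants and 9718 to 10209 in controls. The erythroid list, with 8 of 14 measured, summed to 16214 to 20419 in mutants and 21281 to 25896 in controls, and its median log2 deviation was 0.66 and 0.38 in controls 1 and 2 against -0.22 in control 3 and -0.34 in mutant 3. The median of the list was thus high in controls 1 and 2 and low in mutant 3, while Vegfa, Bnip3 and Hk2 were high in all of these. Control 1 was the highest array in 7 of the 8 genes. The genes differed elsewhere: mutant 3 came next after controls 1 and 2 for Alas2, and control 1 was lowest for Hba-a1. A link with Vegfa, Bnip3 and Hk2 was not tested. The embryonic globins Hbb-bh1, Hbb-y and Hba-x were saturated on all 6 arrays and add nothing to that comparison.

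The epicardial list, with 9 of 10 genes measured, summed to 8165 to 10023 in mutants and 11172 to 14906 in controls, and 7 of the 9 had a negative difference. Krt19, a keratin of that list chosen here after its values were seen, had log2 intensities of 10.03, 10.20 and 10.93 in the mutants against 10.94, 10.69 and 10.16 in the controls. Its high arrays were thus mutant 3 and controls 1 and 2, as for Vegfa, but control 1 was the highest. Bnc1, of the same list and likewise chosen after its values were seen, had the same high arrays. It gave 9.22, 8.97 and 10.60 in the mutants against 11.27, 11.09 and 10.06 in the controls. The remaining measured genes of the list did not have that set of high arrays. Mutant 3 was the highest array in 0 of the 9 measured genes. The median log2 deviation of the list in mutant 3 was -0.10. The cushion mesenchyme list, with 9 of 10 measured and 7 negative, summed to 8713 to 9839 in mutants and 8667 to 9165 in controls. The smooth muscle list, with 4 of 5 measured and all 4 positive, summed to 19821 to 24835 in mutants and 18119.6 to 19755 in controls. Such sums follow the brightest genes of a list. Gene by gene, all mutant arrays lay below all controls in 5 of 10 endothelial, 1 of 9 epicardial and 1 of 8 erythroid genes. The same held for 1 of 12 cardiomyocyte and 1 of 9 cushion mesenchyme genes. All mutant arrays lay above all controls in 1 of 4 smooth muscle, 1 of 9 cushion mesenchyme and 1 of 4 liver genes. Over all genes the shares were 5.48% lower and 9.72% higher. The summed intensities of the groups did not overlap for the endothelial, epicardial, erythroid and smooth muscle lists. The sums lay only narrowly apart for smooth muscle (mutant 1 19821, control 3 19755) and endothelium (mutant 2 9583, control 3 9718). They overlapped for the leukocyte and platelet list (4 of 6 measured, 1079 to 1951 in mutants and 1041 to 1176 in controls), the liver list (4 of 6, 1922 to 2093 in mutants and 1749 to 2845 in controls) and the neural list (6 of 7, 1236 to 1553 in mutants and 1292 to 1997 in controls). Of the 66 genes measured in the marker lists, 0 passed limma's test. At an unadjusted p under 0.05 in that test, 5 of the 66 were higher and 8 lower in the mutant. Over all genes the shares were 6.71% higher and 3.47% lower.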

How the data were processed

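The authors deposited, per the file headers, 1 scanner table for each of 6 CodeLink arrays, with the intensity of each spot, its local background and a quality flag, and a table of normalized intensity values on a linear scale. The scanner software is not named in the labels or headers. With limma 3.58.1 (R 4.3.3), deposited intensities received a normexp background correction of offset 50, were converted to log2 and then quantile-normalized over 21880 annotated spots. A probe was tested if it had 1 gene and was flagged above background on at least 3 of 6 arrays (17589 probes, 15012 genes), and the brightest probe stood for a gene. Groups came from the labels. Differences were tested with lmFit and eBayes, two-sided, adjusted by Benjamini-Hochberg over all probes tested, and tried on simulated data. The offset pulls differences of dim probes towards 0. The members, lists and naming rule were chosen with earlier results of these data known. All members are accounted for, each of the 4 related pathway lists gives the 2 genes with the smallest p, and marker lists are given by their sums. The number of arrays limits the precision. No block was used, as the labels do not say what the number shared by a mutant and a control array marks. Deviations from the group mean correlated at 0.02, -0.49 and -0.38 for same-numbered arrays. For differently numbered arrays the correlations ran from -0.51 to 0.56. With so few arrays per group, these values do not settle whether arrays are paired. Processing alternatives are given in the closing section.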

Additional observations from a re-analysis of the deposited data

How the results depend on the processing

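Against 9 probes past the threshold with all arrays, 5 passed with local background subtraction, 4 with the authors' normalized intensity, 5 with the series' value table, 5 with no normalization between arrays, 5 with the mean of a gene's probes, 0 with the title number as a replicate block and 1308 with the title code as a slide block, whose control arm is 1 array. Leaving out 1 array, or both arrays of 1 number, gave 0 to 3877 probes: 1 without mutant 3, 321 without control 3, 3877 without both, and 0 in the other cases. The count of members past the threshold was 0 except for 3 with the slide block and 7 without mutant 3 and control 3, and left-out arrays gave 0 to 7. The replicate block changed no call of a member. Members at an unadjusted p under 0.05 numbered 2, against 0 with background subtraction or the authors' normalized intensity, 1 with offset 16, the value table, or eBayes with trend and robust, 10 with the slide block, and 0 to 13 with arrays left out. The median log2 difference of the members, 0.13, was -0.21 with the slide block and -0.15 to 0.30 with arrays left out. Differences of opposite sign that passed were those of Vegfa (-0.95) and Ndrg1 (-0.71) with the slide block and of 3 genes without mutant 3 and control 3. Over all left-out arrays Vegfa ranged from -0.75 to 0.75, Bnip3 from -0.64 to 0.46 and Ndrg1 from -0.59 to 0.45. The cause was not tested. Of 615 values of single members over 22 alternatives, 551 kept their sign without a call, 54 changed sign without a call, and 20 members changed sign at least once. The count of members highest in mutant 3 under other scalings and probe rules was added after seeing the data.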
